A study of Mus musculus with 9 samples.

Results

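Cytochromes P450 of families 1 to 4 are haem monooxygenases that oxidise drugs, odorants, steroids and fatty acids. The probe sets described were those annotated with exactly 1 gene symbol beginning with Cyp1, Cyp2, Cyp3 or Cyp4 and a subfamily letter. There were 80 such members among 21367 probe sets with 1 symbol, namely 3 of family 1, 48 of family 2, 9 of family 3 and 20 of family 4. Another 5 probe sets carried such a P450 together with a second symbol and were kept apart. RNA came from the olfactory bulb of male ICR mice, labelled as 8 weeks old and housed singly, and was hybridised to 9 Clariom S arrays. The 3 groups of 3 arrays each came from mice that inhaled 1% Tween 80 (a detergent, the vehicle), 1% linalyl acetate or 10% linalyl acetate as whole-body exposure from an aroma diffuser over 7 days. A tail suspension test, which scores immobility, followed 30 min of inhalation. The labels do not say whether each array held RNA of 1 mouse, so the spread between arrays may be partly technical.

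Some labels were at odds with these groups. The series' design text describes a human cell line with other treatments, and 5 sample descriptions name oral or injected treatments (saline for vehicle replicates 1 and 2, lipopolysaccharide for vehicle replicate 3, and oleacein with lipopolysaccharide for 1% replicates 1 and 2). Titles, source names and the growth protocol all gave the linalyl acetate groups, which were used. Lipopolysaccharide-inducible genes (14 of 15 listed measured) averaged 5.35 log2 signal on vehicle replicate 3. They averaged 5.40 and 5.53 on the other vehicle arrays and 5.15 to 5.35 on the linalyl acetate arrays. Olfactory bulb neuron markers averaged between 12.07 and 12.91 on every array, as the tissue label says. They were lowest on vehicle replicate 3 (12.15), 1% replicate 2 (12.17) and 10% replicate 2 (12.07). On the other 6 arrays they averaged 12.59 to 12.91. Cortical projection neuron markers stood higher on vehicle replicate 3, 1% replicate 2 and 10% replicate 2 (11.25 to 11.28) than on the other 6 arrays (10.07 to 10.58), so values without those 3 arrays are given beside the genes below whose differences were recomputed.

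Linalyl acetate is an ester of the monoterpene alcohol linalool, found in lavender oil. Esterases release linalool from it, and hepatic P450s oxidise linalool further. In rodents the olfactory mucosa, which lines the nose next to the bulb, is rich in P450s that act on inhaled chemicals: Cyp2g1 and Cyp2a5 are made there by sustentacular cells and Bowman's glands. The brain holds its own set, several of which act on arachidonic acid and other fatty acids. Many hepatic P450 genes are induced by foreign chemicals through the nuclear receptors Pxr (Nr1i2) and Car (Nr1i3), and those of family 1 through the aryl hydrocarbon receptor.

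Most members gave dim probe sets. Their mean log2 signals over the 9 arrays ran between 3.05 and 10.67 with a median of 4.86, and 14 of the 80 lay at or above the median of all probe sets. Between 11 and 15 members per array exceeded the median of the 5222 negative-control probe sets (6.87 to 7.12). The median over all deposited probe sets was 6.92 to 6.98 per array, close to that control median. The 95th percentile of the negative controls was 10.78 to 11.11 per array, above the highest member mean (10.67). No detection call was analysed here, so a dim probe set gives no statement on whether its gene was expressed, and a signal is not compared between genes as an amount of RNA. The 14 brighter members were 8 of family 2 and 6 of family 4, and none of the 3 family 1 or 9 family 3 members was among them.

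**Figure D1:**
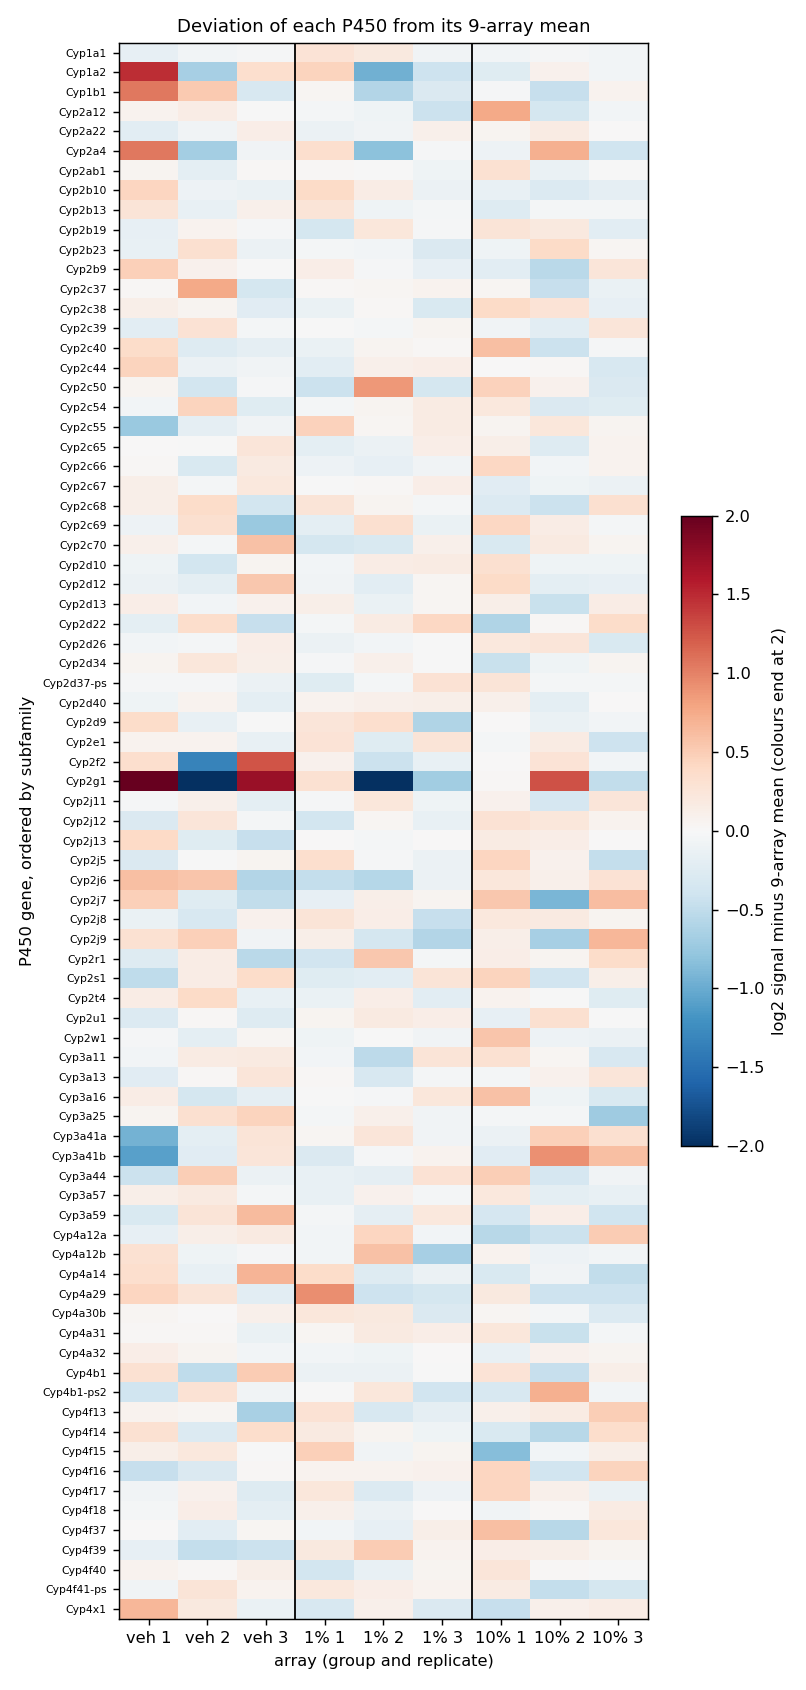
Deviation of each of the 80 P450 members (down the page, by subfamily) from its own mean over 9 arrays, in log2 units, with vehicle, 1% and 10% linalyl acetate arrays from left to right. Single arrays of Cyp2g1, Cyp1a2 and Cyp2f2 have the strongest colours, and colours end at 2, which Cyp2g1 passes.

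Among the brightest members were P450s with known expression in brain or roles in lipid oxidation. Cyp2j9, a brain enzyme that hydroxylates arachidonic acid, gave 10.97, 11.15 and 10.59 log2 signal in vehicle bulbs, 10.78, 10.32 and 10.08 in 1% bulbs, and 10.78, 10.00 and 11.33 in 10% bulbs. Cyp2u1, a fatty acid hydroxylase of brain and thymus, gave 10.24, 10.53 and 10.25 in vehicle bulbs, 10.56, 10.69 and 10.65 in 1% bulbs, and 10.35, 10.83 and 10.51 in 10% bulbs. The 1% arrays of Cyp2u1 all lay above the vehicle arrays by a narrow gap, whereas the Cyp2j9 groups overlapped.

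Cyp2d22, often taken as the mouse counterpart of the human enzyme that hydroxylates debrisoquine, averaged 10.13 ± 0.42 in vehicle bulbs, 10.41 ± 0.23 in 1% bulbs and 10.16 ± 0.49 in 10% bulbs (SD, n = 3 each). Cyp4x1, a brain P450 whose human form oxidises anandamide, averaged 8.37 ± 0.40 in vehicle bulbs, 7.95 ± 0.24 in 1% bulbs and 8.05 ± 0.34 in 10% bulbs. Neither gene had an unadjusted p under 0.05 in any comparison, and their groups overlapped. Among the other bright members, Cyp4f15, Cyp4f16 and Cyp4f18 belong to the subfamily that inactivates leukotrienes, and Cyp2d13, Cyp2d10 and Cyp2d9 are genes of the Cyp2d subfamily. Cyp4f15 ran from 7.70 to 9.02 over the 9 arrays and Cyp4f16 from 7.89 to 8.80. Cyp4f18 stayed between 7.41 and 7.77. Cyp2d13 ran from 9.10 to 9.68 and Cyp2d10 from 7.54 to 8.23. Cyp2d9, a testosterone hydroxylase in male mouse liver, ran from 6.77 to 7.74.

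Cyp2j6, an epoxygenase related to Cyp2j9, was the bright member whose groups separated between the 2 doses. It gave 10.49, 10.44 and 9.30 log2 signal in vehicle bulbs, 9.42, 9.32 and 9.77 in 1% bulbs, and 10.11, 9.99 and 10.18 in 10% bulbs. The 10% arrays all stood above the 1% arrays, and vehicle replicate 3 was far below the other vehicle arrays. In limma's moderated test the 10% minus 1% difference was 0.59 ± 0.28 (SE), with an adjusted p = 0.999 after Benjamini-Hochberg adjustment over all 21367 probe sets. The 1% minus vehicle difference was -0.57 ± 0.28 (adjusted p = 0.998 in limma). Without vehicle replicate 3 the difference from vehicle was -0.96 (limma adjusted p = 0.548), and it was -0.37 without vehicle replicate 1. Leaving out the 3 arrays of high cortical signal gave -0.87 for 1% minus vehicle and 0.55 for 10% minus 1%.

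The 4 members with the largest residual SD within groups, Cyp2g1, Cyp2f2, Cyp1a2 and Cyp2a4, are all P450s known from the olfactory mucosa. Next came Cyp2j7 (residual SD 0.58, rank 663 of all probe sets), which was not listed as an olfactory mucosa P450. Cyp2g1, a P450 made almost only in olfactory mucosa, gave 11.03, 5.66 and 10.00 log2 signal in vehicle bulbs, 8.57, 5.97 and 7.58 in 1% bulbs, and 8.29, 9.54 and 7.77 in 10% bulbs. The highest array, vehicle replicate 1, and the lowest, vehicle replicate 2, thus belonged to the same group, 5.37 log2 units apart. The residual SD of Cyp2g1 within groups, 1.89, was rank 28 among the 21367 probe sets.

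The probe set shared by Cyp2a5, the coumarin and nicotine hydroxylase of mouse nose and liver, and Cyp2a4, a steroid hydroxylase, followed a similar course. It gave 10.55, 5.15 and 8.24 in vehicle bulbs, 8.17, 5.39 and 7.70 in 1% bulbs, and 7.09, 9.28 and 7.28 in 10% bulbs. The signal of this probe set cannot be split between the genes. A probe set annotated to Cyp2a4 alone gave 7.53, 5.80 and 6.40 in vehicle bulbs, 6.81, 5.66 and 6.45 in 1% bulbs, and 6.37, 7.18 and 6.08 in 10% bulbs.

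Cyp2f2, which bioactivates naphthalene in airway club cells and nasal epithelium, gave 7.15, 5.48 and 8.08 in vehicle bulbs, 6.90, 6.39 and 6.67 in 1% bulbs, and 6.83, 7.10 and 6.77 in 10% bulbs. Cyp1a2, an oxidase of caffeine and aromatic amines in liver and nasal mucosa, gave 5.72, 3.58 and 4.59 in vehicle bulbs, 4.70, 3.29 and 3.83 in 1% bulbs, and 4.01, 4.34 and 4.20 in 10% bulbs. In all 5 probe sets the lowest and second-lowest arrays were vehicle replicate 2 and 1% replicate 2. In 4 of them, all but Cyp2f2, the highest was vehicle replicate 1.

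The 250 bases upstream of the start site are printed below for the 4 variable mucosa P450s that had a window in RefSeq's promoter table (GRCm38.p6), to show what sequence they do and do not share. Capitals mark matches, on either strand, to TATAAA (the TATA box) or to TTGGC (a half-site of nuclear factor I proteins, which bind upstream of mouse Cyp2a5 and rat Cyp1a2 in olfactory mucosa). The matches do not overlap.
Cyp2a5, chr7:26835089-26835338, plus strand: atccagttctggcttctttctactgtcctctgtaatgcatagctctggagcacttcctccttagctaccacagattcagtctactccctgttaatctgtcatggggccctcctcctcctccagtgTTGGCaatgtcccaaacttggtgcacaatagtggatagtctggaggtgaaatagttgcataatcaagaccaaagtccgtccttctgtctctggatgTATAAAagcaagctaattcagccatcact
Cyp2a4, chr7:26306942-26307191, plus strand: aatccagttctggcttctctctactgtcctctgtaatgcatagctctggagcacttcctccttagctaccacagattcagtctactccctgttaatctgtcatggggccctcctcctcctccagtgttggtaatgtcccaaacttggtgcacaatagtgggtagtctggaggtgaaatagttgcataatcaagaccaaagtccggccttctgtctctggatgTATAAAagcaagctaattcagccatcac
Cyp2f2, chr7:27119705-27119954, plus strand: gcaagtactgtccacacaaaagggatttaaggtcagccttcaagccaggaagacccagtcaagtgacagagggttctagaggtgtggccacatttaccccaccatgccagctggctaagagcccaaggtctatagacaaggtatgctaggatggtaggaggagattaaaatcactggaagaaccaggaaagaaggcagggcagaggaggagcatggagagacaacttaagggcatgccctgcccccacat
Cyp1a2, chr9:57683656-57683905, minus strand: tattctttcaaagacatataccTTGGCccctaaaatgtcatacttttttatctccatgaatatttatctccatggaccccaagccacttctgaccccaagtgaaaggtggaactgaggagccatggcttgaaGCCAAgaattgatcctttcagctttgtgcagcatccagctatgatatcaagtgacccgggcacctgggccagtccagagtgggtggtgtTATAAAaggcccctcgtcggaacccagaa

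The Cyp2a4 and Cyp2a5 windows were identical at 245 of 249 aligned bases (98.4%) after a shift of 1 base. Cyp2a5, Cyp2a4 and Cyp1a2 each held a TATA box match, as did 33.3% of the 69 windows of 62 members and 12.4% of all 32851 windows. The nuclear factor I half-site matched once in Cyp2a5, not at all in Cyp2a4 and at 2 positions in Cyp1a2, and was present in 63.8% of member windows and 41.5% of all windows. Neither motif was found in the Cyp2f2 window. The xenobiotic response element core GCGTG, to which the aryl hydrocarbon receptor binds, and CCCNNGGG, a form of the early B-cell factor site, had no match in the 4 windows. The first was present in 18.8% of member windows and 28.2% of all windows, and the second in 4.35% of member windows and 11.8% of all windows. These matches describe the letters of the windows only.

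For these genes the spread lay largely within groups. For Cyp2g1 the 1% minus vehicle difference was -1.52 ± 1.13 (SE, 95% interval -4.01 to 0.96, limma adjusted p = 0.998). The 10% minus vehicle difference was -0.36 ± 1.13 (95% interval -2.85 to 2.12, limma adjusted p = 0.998), and 10% minus 1% was 1.16 (limma adjusted p = 0.999). Single arrays decided these values: without vehicle replicate 2 the differences from vehicle were -3.14 at 1% and -1.98 at 10%, and without vehicle replicate 1 they were -0.46 and 0.70. Without the 3 arrays of high cortical signal the differences from vehicle were -0.27 at 1% and -0.32 at 10%, the 10% minus 1% difference was -0.04, and without 1% replicate 2 alone the 10% minus 1% difference was 0.46. The authors' deposited table gives signed folds of -7.23 at 1% (p = 0.2102) and -3.77 at 10% (p = 0.7556) for Cyp2g1, whereas 2 raised to the difference of mean log2 signals is 2.87-fold lower at 1% and 1.29-fold lower at 10%.

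Other P450s known from olfactory mucosa ranged less over the arrays. The probe sets of Cyp2e1, Cyp2s1 and Cyp2b10 were dim, with means of 4.98, 5.34 and 4.58. Their narrow range therefore does not show that these 3 genes did not vary. Cyp4b1, which bioactivates furans in nose and lung, ran from 6.03 to 7.05, Cyp2e1, the ethanol-oxidising P450, from 4.57 to 5.25, Cyp2s1, an epithelial P450, from 4.83 to 5.79, and Cyp2b10, a Car target, from 4.31 to 5.02. Over the 9 genes of this group measured by a probe set of their own, of 11 listed, the mean log2 signal was 7.07, 5.78 and 6.71 in vehicle bulbs, 6.46, 5.74 and 6.24 in 1% bulbs, and 6.40, 6.52 and 6.23 in 10% bulbs. The means of vehicle replicate 2 and 1% replicate 2 were the lowest, but they include Cyp2g1, Cyp2f2, Cyp1a2 and Cyp2a4, so they add no separate evidence. Of the other genes, only Cyp4b1 was lowest on vehicle replicate 2. The lowest array was 10% replicate 2 for Cyp2b10, 10% replicate 3 for Cyp2e1, vehicle replicate 1 for Cyp2s1 and vehicle replicate 3 for Cyp2j6. Against vehicle, 2 of the 9 genes had a higher mean and 7 a lower one at either dose, with median log2 differences of -0.25 at 1% and -0.09 at 10%, beside 0.00 and 0.01 over all probe sets. None of the 9 had an unadjusted p under 0.05 in any of the 3 comparisons, where 3.42% of all probe sets did at 1%, 3.78% at 10% and 3.0% between the doses, so a count of 0 among 9 is near the background.

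Nasal genes that are not P450s fell into differing patterns across the same arrays. Gpx6, a glutathione peroxidase of olfactory epithelium, gave 10.00, 6.17 and 7.61 in vehicle bulbs, 8.24, 6.52 and 8.01 in 1% bulbs, and 7.72, 8.08 and 8.18 in 10% bulbs. Scgb1c1, a secretoglobin of Bowman's glands, and Sec14l3, a lipid-binding protein of nasal epithelium, shared with Cyp2g1 and Cyp1a2 both the highest array, vehicle replicate 1, and the lowest pair, vehicle replicate 2 and 1% replicate 2. Obp1a, an odorant-binding protein of nasal glands, gave 5.72, 5.32 and 5.36 in vehicle bulbs, 8.41, 5.35 and 10.41 in 1% bulbs, and 5.57, 10.15 and 9.84 in 10% bulbs. Obp2a, of the same family, was likewise high on 1% replicate 3 (10.39), 10% replicate 2 (12.35) and 10% replicate 3 (11.80), and at 7.01 on vehicle replicate 1. The odorant-binding proteins and Cyp2g1 were therefore highest on different arrays. Vehicle replicate 2 was the lowest array for Obp1a and Obp2a as it was for Cyp2g1. For Obp1a the low arrays were nearly equal, at 5.32 there, 5.35 on 1% replicate 2 and 5.36 on vehicle replicate 3. On vehicle replicate 3 Obp2a was low too (4.76), whereas Cyp2g1 was high (10.00).

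The summed picture of the nasal list moved with the P450s only in part. The 25 measured genes of 27 averaged 6.23, 5.08 and 5.51 in vehicle bulbs, 6.02, 5.22 and 6.50 in 1% bulbs, and 5.47, 6.64 and 6.71 in 10% bulbs. Among them Ermn is also a marker of oligodendrocytes. It was bright on every array (9.45 to 11.16) and highest on vehicle replicate 3, so this mean is not of nasal genes alone. Markers of olfactory sensory neurons, whose axons enter the bulb, averaged 8.17, 7.66 and 7.96 in vehicle bulbs, 7.70, 7.43 and 7.88 in 1% bulbs, and 7.75, 8.07 and 8.02 in 10% bulbs. Their mean was thus lowest on 1% replicate 2 and next lowest, by little, on vehicle replicate 2. Of these markers, Slc17a6 was also listed for olfactory bulb neurons. Gnal and Gap43 were highest on the arrays of high cortical signal. Gnal gave 12.59 on vehicle replicate 3, 11.79 on 1% replicate 2 and 12.27 on 10% replicate 2, and Gap43 gave 12.92, 12.89 and 12.80. The mean is therefore not of sensory neurons alone. Single markers differed: Omp was lowest on 1% replicate 2 (8.58), but higher on vehicle replicate 2 (10.91) than on vehicle replicate 3 (9.91). Hepatocyte markers averaged 4.48 to 4.99 on every array. At 10% against vehicle, Obp1a, Obp1b, Obp2a, Obp2b and Lcn11, 5 of the 25 nasal genes, had a higher mean with an unadjusted p under 0.05, which 3.78% of all probe sets had in either direction, and none passed the adjusted threshold. The part of other tissue in the P450 signals was not tested, and in bulk RNA fewer cells of a type and less RNA per cell cannot be told apart.

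**Figure D2:**
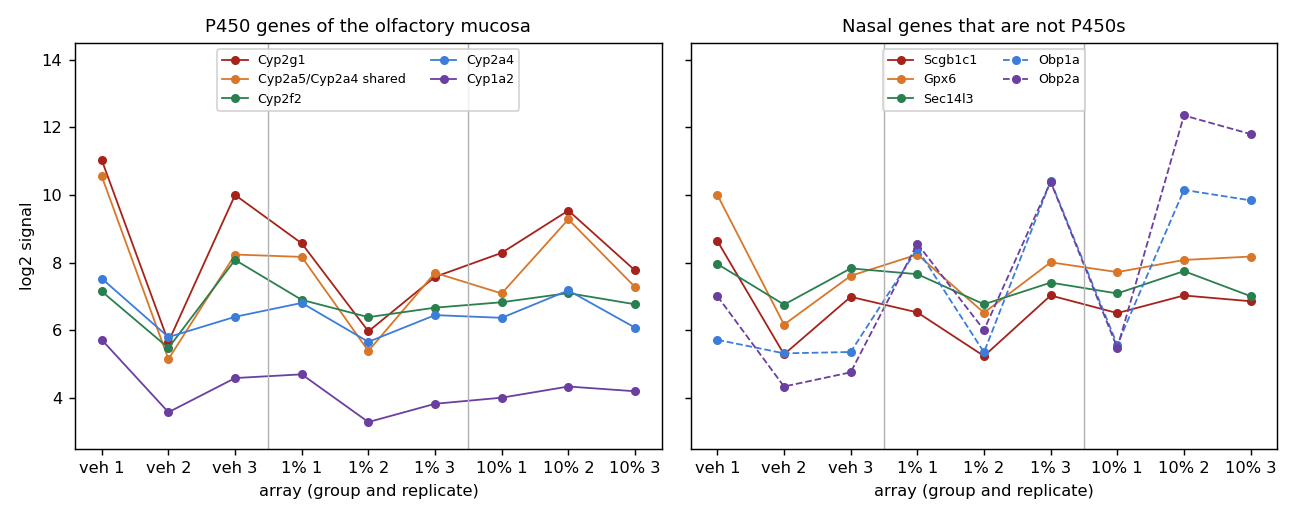
Log2 signal on each of the 9 arrays for 5 P450 probe sets of the olfactory mucosa (left) and for 5 other nasal genes (right), with vehicle, 1% and 10% arrays in that order. The P450s, Gpx6, Scgb1c1 and Sec14l3 dip on vehicle replicate 2 and 1% replicate 2, while Obp1a and Obp2a (dashed) peak on 1% replicate 3 and 10% replicates 2 and 3.

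Cyp2g1, Cyp2a5, Cyp2a4 and Cyp2f2 lie in 1 cluster of Cyp2 genes on mouse chromosome 7. In the order of RefSeq's annotation the cluster holds 17 genes from Cyp2s1 to Cyp2t4, and 13 of them had a probe set. The difference between the highest and lowest array was 1.87 for Cyp2a4, 5.37 for Cyp2g1, 5.40 for the Cyp2a5 and Cyp2a4 probe set and 2.60 for Cyp2f2. The other 9 genes ranged over 0.38 to 1.20, and some stand between the variable ones: Cyp2b23 and Cyp2b19 separate Cyp2a4 from Cyp2g1, and Cyp2a22 and Cyp2a12 separate Cyp2a5 from Cyp2f2. These 9 probe sets were dim, with means of 3.10 to 5.34 over the arrays, beside 6.48 to 8.27 for the variable ones. Their narrow range therefore does not show that these genes did not vary. Of the 68 members elsewhere in the genome, 4 ranged over more than 1.5 log2 units, namely Cyp1a2, Cyp3a41b, Cyp1b1 and Cyp2j7 (4.46 to 5.98), as did 5.59% of all probe sets. This limit of 1.5 was chosen after the values were seen, and no test was made of it.

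**Figure D3:**
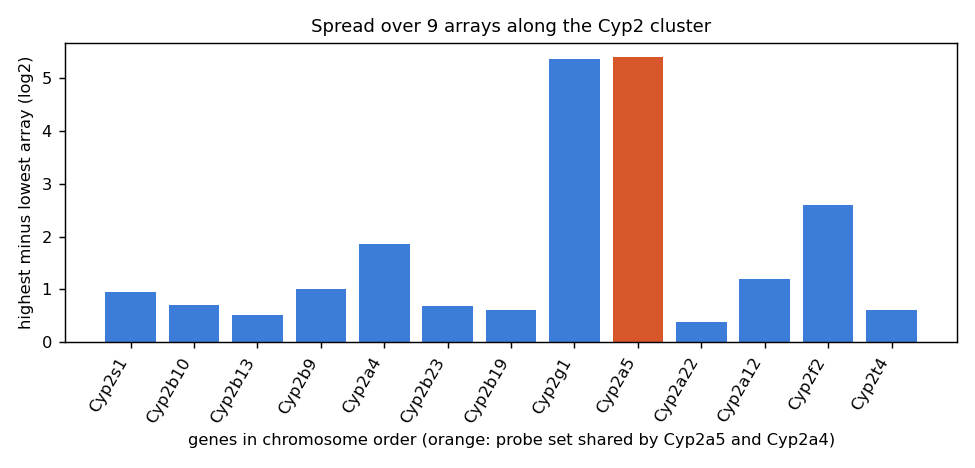
Highest minus lowest log2 signal over the 9 arrays for the 13 genes with a probe set in the Cyp2 cluster of chromosome 7, in gene order but not to scale. Cyp2g1 (5.37) and the probe set shared by Cyp2a5 and Cyp2a4 (5.40, orange) stand above genes with dim probe sets such as Cyp2a22 (0.38).

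No member passed the adjusted threshold in any comparison between groups. Against vehicle, 0 of the 80 members reached a limma adjusted p of 0.05 at 1% linalyl acetate and 0 at 10%, and 0 did so between the doses or in the F test over the 3 groups, beside 0.0% of all probe sets in each of the 3 comparisons. The lowest adjusted p among members was 0.998 at both doses against vehicle. The median log2 difference of the members was -0.01 at 1% and 0.02 at 10% against vehicle, and 0.05 for 10% minus 1%, beside 0.00, 0.01 and 0.00 over all probe sets. The median standard error of a member's difference was 0.22, so small differences could be missed for a typical member. A simulation of 10% against vehicle changed 200 of the 21367 probe sets. The adjusted threshold recovered 36% of them at 2-fold and 92% at 4-fold. A 2-fold change could thus be missed as well.

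At 1% linalyl acetate 3 of 80 members (3.75%) had an unadjusted p under 0.05 against vehicle, where 3.42% of all probe sets did. The count was 1 without vehicle replicate 1, 5 without vehicle replicate 2 and 6 without vehicle replicate 3. Leaving out the 3 arrays of high cortical signal gave 5. At 10% the count was 4 of 80 (5.0%), where 3.78% of all probe sets did. Between 10% and 1% it was 0 of 80, where 3.0% of all probe sets did, and it was 3 without the 3 arrays of high cortical signal and 0 to 3 when single arrays were left out. In the F test over the 3 groups it was 2 of 80 (2.5%, Cyp4f39 and Cyp2c55), where 2.95% of all probe sets did. These shares are near their backgrounds. None of these members also differed by more than 2-fold, as 0.164% of all probe sets did at 1%, 0.197% at 10% and 0.108% between the doses. The 2 doses share their vehicle arrays, so a gene low in vehicle appears in both comparisons.

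Cyp4f39, the mouse counterpart of the enzyme that hydroxylates very long fatty acids for the skin barrier, had an unadjusted p under 0.05 at both doses. It gave 4.89, 5.21 and 4.77 log2 signal in 1% bulbs and 4.83, 4.82 and 4.75 in 10% bulbs, against 4.54, 4.23 and 4.28 in vehicle bulbs. All 6 treated arrays lay above the 3 vehicle arrays. The difference from vehicle was 0.61 ± 0.17 at 1% (SE, 95% interval 0.23 to 0.98) and 0.45 ± 0.17 at 10% (95% interval 0.07 to 0.83), with a limma adjusted p of 0.998 at both. Without the 3 arrays of high cortical signal it was 0.44 at 1% and 0.40 at 10%, and the unadjusted p was then above 0.05 at both. The probe set was dim, below the median of the negative controls on every array.

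Cyp2c55, an arachidonic acid hydroxylase of mouse gut and kidney, gave 5.86, 5.44 and 5.57 in 1% bulbs and 5.45, 5.63 and 5.45 in 10% bulbs, against 4.66, 5.22 and 5.33 in vehicle bulbs. All treated arrays were again above all vehicle arrays, of which vehicle replicate 1 was the lowest. The difference was 0.55 ± 0.20 at 1% and 0.44 ± 0.20 at 10% (SE), with a limma adjusted p of 0.998 at both and an unadjusted p under 0.05 at 1% only. Without vehicle replicate 1 it was 0.35 at 1% and 0.24 at 10%, and without the 3 arrays of high cortical signal it was 0.78 and 0.51.

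Cyp1b1, an aryl hydrocarbon receptor target that hydroxylates oestradiol and is found in mural cells and meninges, had a lower mean at both doses than in vehicle. It gave 6.50, 5.87 and 6.17 in 1% bulbs and 6.43, 5.99 and 6.53 in 10% bulbs, against 7.51, 6.98 and 6.14 in vehicle bulbs. The groups overlapped because vehicle replicate 3 was among the low arrays. The difference was -0.70 ± 0.31 at 1% and -0.56 ± 0.31 at 10% (SE), with a limma adjusted p of 0.998 at both. It was -0.38 at 1% and -0.24 at 10% without vehicle replicate 1, and -1.06 and -0.93 without vehicle replicate 3. Leaving out the 3 arrays of high cortical signal gave -0.91 at 1% and -0.76 at 10%, and the unadjusted p was then under 0.05 at both doses. The 13 meningeal fibroblast markers averaged 9.28, 9.04 and 9.65 in 1% bulbs and 9.42, 9.12 and 9.57 in 10% bulbs, against 9.71, 9.76 and 8.94 in vehicle bulbs, and so were also low on vehicle replicate 3. The 19 endothelial and mural cell markers averaged 8.61, 8.66 and 8.53 in 1% bulbs and 8.25, 8.46 and 8.84 in 10% bulbs, against 8.77, 8.77 and 8.65 in vehicle bulbs. Of these 19 markers, 13 had a lower mean at 1% and 15 at 10% than in vehicle, with median differences of -0.09 and -0.19. Over all probe sets, 50.3% had a higher mean at 1% and 51.4% at 10%. At 1%, Acta2 (0.86 ± 0.28, SE) and Myh11 (0.40 ± 0.17) were higher with an unadjusted p under 0.05. Flt1, Kdr and Pdgfrb were lower with one, where 3.42% of all probe sets passed in either direction. At 10% only Pdgfrb did so, beside 3.78%. Pdgfrb, a receptor of mural cells, gave 8.67, 8.74 and 8.90 in 1% bulbs and 8.46, 8.77 and 8.79 in 10% bulbs, against 9.20, 9.14 and 9.05 in vehicle bulbs, with an unadjusted p under 0.05 and a limma adjusted p of 0.998 at both doses. The part of these cells in the Cyp1b1 values was not tested.

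At 10% linalyl acetate 3 further members had an unadjusted p under 0.05. Cyp3a25, a testosterone hydroxylase of liver, gave 4.72, 4.72 and 4.05 in 10% bulbs, against 4.82, 5.08 and 5.21 in vehicle bulbs, a difference of -0.54 ± 0.21 (SE, limma adjusted p = 0.998). Without 10% replicate 3 it was -0.32, and without the 3 arrays of high cortical signal it was -0.56 with an unadjusted p above 0.05. The groups did not overlap, but the gap between the nearest arrays was small.

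Cyp4a14, a fatty acid hydroxylase under Ppara control in liver, gave 5.46, 5.70 and 5.28 in 10% bulbs, against 6.11, 5.62 and 6.45 in vehicle bulbs. The groups overlapped, and the difference was -0.58 ± 0.24 (SE, limma adjusted p = 0.998), or -0.38 without vehicle replicate 3. Leaving out the 3 arrays of high cortical signal gave -0.50, with an unadjusted p above 0.05. Cyp3a41b, a liver P450 more abundant in female mice, gave 3.83, 4.96 and 4.66 in 10% bulbs, against 2.97, 3.83 and 4.30 in vehicle bulbs. Its difference was 0.78 ± 0.34 (SE, limma adjusted p = 0.998), or 0.42 without vehicle replicate 1 and 0.84 when the 3 arrays of high cortical signal were left out. Cyp3a41a, a close copy whose transcripts may hybridise to the same probes, gave 3.25, 3.84 and 3.69 in 10% bulbs, against 2.42, 3.17 and 3.62 in vehicle bulbs. Vehicle replicate 1 was the lowest array for both copies.

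**Figure D4:**
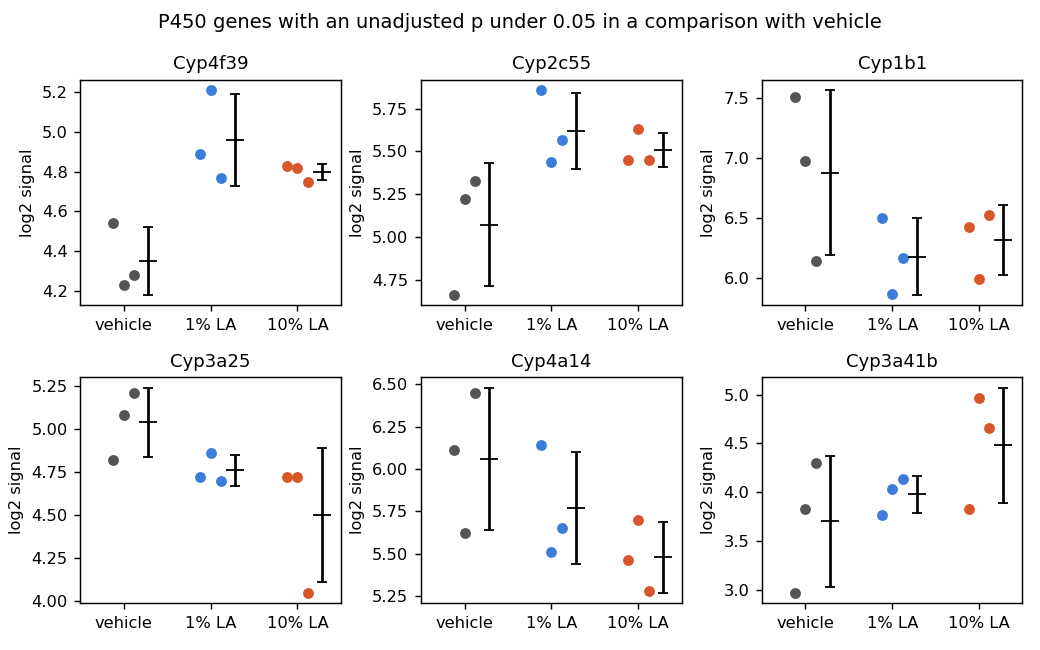
Log2 signal on each array (points) with mean and SD (bars, n = 3 per group) for the 6 members with an unadjusted p under 0.05 against vehicle, each panel on its own axis. All treated arrays of Cyp4f39 and Cyp2c55 lie above their vehicle arrays, and vehicle points of Cyp1b1, Cyp4a14 and Cyp3a41b overlap treated ones.

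Complete separation of groups was about as frequent among the members as over all probe sets. At 1% the arrays did not overlap with vehicle in 6 of 80 members (7.5%, beside 9.22% of all probe sets): Cyp2c55, Cyp2u1, Cyp4a31, Cyp4f16 and Cyp4f39 were higher and Cyp2a12 was lower. At 10% they did not overlap in 7 of 80 (8.75%, beside 7.46%): Cyp2c55, Cyp4f13 and Cyp4f39 were higher, and Cyp2b10, Cyp2c67, Cyp2d34 and Cyp3a25 were lower. Cyp2b10 gave 4.43, 4.31 and 4.41 in 10% bulbs, against 5.02, 4.48 and 4.45 in vehicle bulbs. Between 10% and 1% the count was 5 of 80 (6.25%, beside 7.1%). Member means were higher than vehicle in 37 of 80 at 1% and in 41 of 80 at 10%, beside 50.3% and 51.4% of all probe sets, and 10% means exceeded 1% means in 46 of 80, beside 50.5%.

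**Figure D5:**
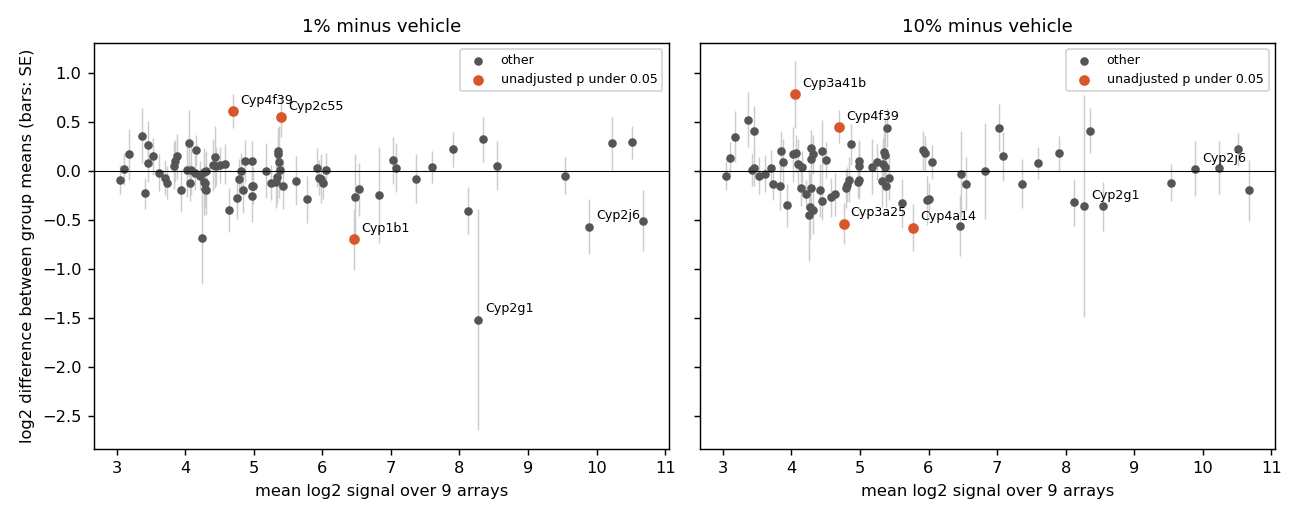
Log2 difference between group means, with its SE, against the mean log2 signal over 9 arrays for the 80 members, for 1% minus vehicle (left) and 10% minus vehicle (right). Most points lie near 0 (medians -0.01 and 0.02), orange points have an unadjusted p under 0.05, and Cyp2g1 has the widest error bar.

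Cyp1a1 and Cyp3a11, which respond to inducing receptors in liver, gave differences whose intervals included 0. Cyp1a1, the aryl hydrocarbon receptor's best-known target, averaged 4.28 ± 0.18 in 1% bulbs and 4.11 ± 0.01 in 10% bulbs, against 4.07 ± 0.08 in vehicle bulbs (SD, n = 3 each). Cyp3a11, a Pxr target, averaged 4.73 ± 0.40 in 1% bulbs and 4.84 ± 0.32 in 10% bulbs, against 4.94 ± 0.13 in vehicle bulbs. The probe set shared by Cyp4a10, a Ppara target, and Cyp4a31 averaged 4.48 ± 0.23 in 1% bulbs and 4.14 ± 0.18 in 10% bulbs, against 4.15 ± 0.05 in vehicle bulbs. The 95% interval of the Cyp1a1 difference from vehicle was -0.13 to 0.56 at 1% and -0.30 to 0.38 at 10%. For Cyp3a11 it was -0.71 to 0.30 at 1% and -0.60 to 0.41 at 10%. All these probe sets were dim, and a change below their working range would not be seen.

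Genes that serve the P450s gave median differences near 0. Of 19 genes for electron transfer and haem supply, among them Por, the P450 reductase, and Alas1, which starts haem synthesis, 12 had a higher and 7 a lower mean at 1% than in vehicle, and 10 were higher and 9 lower at 10%. The median differences were 0.02 and 0.12. One of the 19 had an unadjusted p under 0.05, and only at 10%, where 3.78% of all probe sets did: Ppox, an enzyme of haem synthesis, gave 10.13, 10.05 and 10.22 in 10% bulbs, against 9.83, 9.51 and 9.44 in vehicle bulbs, and its difference was 0.54 ± 0.21 (SE). Of 19 measured genes of xenobiotic and lipid sensing, 8 were higher and 11 lower at 1%, and 13 were higher and 6 lower at 10%, with median differences of -0.08 and 0.02. Tiparp, a repressor and target of the aryl hydrocarbon receptor, gave 7.61, 7.82 and 8.02 in 10% bulbs, against 9.27, 9.82 and 7.77 in vehicle bulbs, a difference of -1.14 ± 0.41 (SE), and was the one gene of these 19 with an unadjusted p under 0.05, again only at 10% and beside the same 3.78%. The groups overlapped on vehicle replicate 3, which is among the 3 arrays of high cortical signal. Cyp1b1, another target of that receptor, was low there as well. Cyp1a1, a further target, was not (4.12, against 3.98 and 4.10 on the other vehicle arrays). A part of the receptor in these values was not tested. No gene of either list passed the adjusted threshold in any comparison.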

How the data were processed

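The authors deposited log2 signals of 22206 Clariom S probe sets on 9 arrays, made by RMA in Transcriptome Analysis Console version 4, per the submitters' processing notes, and tables of their own limma comparisons with p-values and signed fold scores. No source used here names the annotation's genome build. Signals were kept as deposited. In 1 column 27 cells held dates; these were decoded as numbers, within 0.00518 log2 of the deposited series matrix. Probe sets with several symbols (836) or none (3) were left out. limma 3.58.1 (R 4.3.3) fitted group means on all 9 arrays with moderated tests (6 residual and 5.27 prior degrees of freedom), Benjamini-Hochberg adjustment over 21367 probe sets and a threshold of 0.05, tested on simulated data. Array number (3 per group) limits precision.

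The members and lists were chosen with earlier results of these data known. Named were the 12 members of highest mean, the measured olfactory mucosa P450s, members with an unadjusted p under 0.05, the 5 of largest residual SD and a set of known inducible or brain P450s. Members with near-identical proteins were to be named as well, but no protein sequences were used here. Alternatives were the series matrix values, quantile normalization, a signal filter, several-symbol probe sets, the replicate number as a block, array weights and arrays left out. Replicate numbers did not pair arrays: deviations from group means of same-numbered arrays correlated at -0.161 to 0.279.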

Additional observations from a re-analysis of the deposited data

How the results depend on the processing

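No P450 member passed the adjusted threshold under any of the 16 alternatives. Of 215 recomputed values of 14 member differences, 211 kept their sign and 4 turned, all of Cyp2g1. Its 10% minus 1% difference was -0.04 without the 3 arrays of high cortical signal, and its 10% minus vehicle difference ranged over -1.98 to 0.70 when single arrays were left out. The number of members with an unadjusted p under 0.05 moved most. At 1% against vehicle, 3 in the main analysis, it was 5 with array weights, 0 among the 14 members at or above the median signal and 5 without the 3 cortical-signal arrays, and 1 to 6 when single arrays were left out. At 10% against vehicle, 4 in the main analysis, it was 0 under the signal filter and 3 to 5 when single arrays were left out. Between 10% and 1%, 0 in the main analysis, it was 3 without the 3 cortical-signal arrays and 0 to 3 when single arrays were left out. In the F test, 2 in the main analysis, it was 4 with array weights, 0 under the filter and 5 without the 3 cortical-signal arrays, and 1 to 6 when single arrays were left out. The median member difference ranged over -0.04 to -0.01 at 1%, -0.07 to 0.05 at 10% and -0.05 to 0.06 between the doses when single arrays were left out. The cause was not tested. The filter tests fewer genes and the arrays left out leave fewer samples. With the replicate number as a block, which the pairing check does not call for, the member counts with an unadjusted p under 0.05 were 3 at 1%, 4 at 10%, 0 between doses and 2 in the F test, as without it, and 3 of 9 arrays correlated best with their own number. Most members are dim, which limits what their differences can show.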
